A study of Homo sapiens with 4 samples.

Results

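Keratin genes were examined in chromatin accessibility data from HK1 cells, a human nasopharyngeal carcinoma line. They were taken as the protein-coding genes of GENCODE release 44 (GRCh38) whose symbol is KRT followed by a digit. This gave 55 genes of 19970. 27 of them lay on chromosome 12, between the outermost gene ends at chr12:52168996-52952906. The other 28 lay on chromosome 17, at chr17:40654665-41624842. The series held 4 ATAC-seq libraries, 1 per group, in which the Tn5 transposase cuts open chromatin. WT cells and cells with FLI1 knocked out by a guide RNA (sgFLI1) were each left untreated (WT, sgFLI1) or treated with interferon-γ (WT-IFN-γ, sgFLI1-IFN-γ) for a day, per the study's methods. FLI1 is a transcription factor of the ETS family. Whether the knockout was a clone or a pool is not given in the sources used here, and a list of peaks does not check the edited gene. With 1 library per group there was no replicate check, no test was made, and all intervals cover counting error only (95%).

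Keratins are the intermediate filament proteins of epithelial cells. A filament is built from pairs of 1 type I (acidic) and 1 type II (basic) keratin, so the partners are made together in a given layer: KRT8 with KRT18 in simple epithelia, KRT5 with KRT14 in the basal layer of stratified epithelia, KRT1 with KRT10 above it in skin, and KRT6 with KRT16 and KRT17 in wounded or activated epithelium. Type II genes are clustered on chromosome 12 and type I genes on chromosome 17. KRT18 is the exception, a type I gene next to KRT8.

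Each library was a list of peaks (59629 for WT, 67470 for WT-IFN-γ, 63203 for sgFLI1, 59923 for sgFLI1-IFN-γ), and sets of 4 values are given below in that order. A peak is described here by its summit tags, the number of fragments piled up at its highest point. Values are compared between libraries as a level, the summit tags divided by the tags per kb of that library's background. That density was 8.04, 8.84, 6.93 and 6.86 tags per kb. A peak that is absent from a list fell short of the caller's threshold or of a later filter. Its tags are unknown and need not be 0. The smallest listed peaks held 8, 8, 7 and 7 tags. As a check of the cell type, EPCAM and KLF5, both epithelial genes, had a promoter peak in every list. CDH1, ESRP1, GRHL2 and TP63 had none at the transcription start sites used. The leukocyte genes PTPRC, CD3E, CD79A and LYZ had no promoter peak. Nor did the endothelial genes PECAM1 and VWF or the fibroblast genes COL3A1, DCN and LUM. CD14 (leukocyte) had one of 14 to 32 tags in every list. CDH5 (endothelial) had one of 18 tags in WT and 17 in sgFLI1-IFN-γ. COL1A1 (fibroblast) had one of 132 tags in sgFLI1 alone, and peaks within 10 kb in every list.

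Peaks with a summit within 10 kb of a keratin transcription start site numbered 42 for WT, 49 for WT-IFN-γ, 51 for sgFLI1 and 46 for the treated knockout. Overlapping peaks of the 4 lists merged into 61 regions, 33 on chromosome 12 and 28 on chromosome 17. Each region is named by the nearest keratin gene and the distance of its strongest summit from that gene's TSS in bp, with a minus sign for upstream. Distances are to the transcription start site (TSS) of the canonical transcript. A region's value in a library is that of its highest summit there, which in 9 regions lay more than 300 bp apart between libraries. The places are given for those that a comparison below turns on. 5 regions that differed between lists are shown as the 151 bases around the strongest summit (GRCh38, plus strand). Capitals mark a match to TGANTCA (the AP-1 motif) or TTCNNNGAA (the GAS motif, short for gamma-activated site). KRT10 -5663 is shown for the largest difference between genotypes. KRT3 -4954 is the strongest listed in WT alone and KRT24 -4128 the strongest listed in WT-IFN-γ alone. KRT5 -3719 and KRT71 +1581 held the most summit tags in sgFLI1 of those listed in both knockout libraries and in neither WT library.
KRT10 -5663, chr17:40828202-40828352: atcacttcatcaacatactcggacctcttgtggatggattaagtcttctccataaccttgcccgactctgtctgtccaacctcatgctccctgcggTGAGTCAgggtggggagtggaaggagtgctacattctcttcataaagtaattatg
KRT3 -4954, chr12:52800996-52801146: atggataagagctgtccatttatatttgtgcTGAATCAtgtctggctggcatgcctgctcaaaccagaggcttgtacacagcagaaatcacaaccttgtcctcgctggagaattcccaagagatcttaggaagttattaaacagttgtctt
KRT24 -4128, chr17:40707805-40707955: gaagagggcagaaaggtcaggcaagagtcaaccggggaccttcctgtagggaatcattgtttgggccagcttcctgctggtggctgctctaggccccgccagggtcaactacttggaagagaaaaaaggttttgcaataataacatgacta
KRT5 -3719, chr12:52524038-52524188: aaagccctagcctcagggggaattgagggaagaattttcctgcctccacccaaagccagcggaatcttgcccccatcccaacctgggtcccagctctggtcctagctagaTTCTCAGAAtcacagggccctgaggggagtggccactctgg
KRT71 +1581, chr12:52551489-52551639: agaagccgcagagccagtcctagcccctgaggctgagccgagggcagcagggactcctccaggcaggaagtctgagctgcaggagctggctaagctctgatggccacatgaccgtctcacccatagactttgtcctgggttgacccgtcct
The first of these lies in an exon of KRT10-AS1, a long noncoding RNA gene, and the last in an intron of KRT71. The other 3 are intergenic.

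Most keratin genes had open chromatin within 10 kb, but few had it at the promoter. A peak within 10 kb was found for 32 of the 55 genes in WT (58.2%, Wilson interval 45.0 to 70.3), 34 with treatment (61.8%), 38 in sgFLI1 (69.1%) and 36 in the treated knockout (65.5%). Over all protein-coding genes the shares were 77.0%, 78.4%, 77.6% and 76.5%. A promoter peak, with its summit within 1 kb of the TSS, was found for 8 keratin genes in WT (14.5%, 7.56 to 26.2), 7 with treatment (12.7%), 7 in sgFLI1 (12.7%) and 6 in the treated knockout (10.9%, 5.10 to 21.8). The shares over all genes were 59.4%, 60.3%, 59.6% and 58.8%. 30 keratin genes had a peak within 10 kb in every list and 14 had none in any list. The matching shares of all protein-coding genes across the lists are not given here. Those 14 were KRT82 and KRT40 of the hair shaft, KRT72, KRT73, KRT25, KRT26 and KRT27 of the inner root sheath, KRT6C, KRT77, KRT4, KRT12, KRT20, KRT23 and KRT222.

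**Figure D1:**
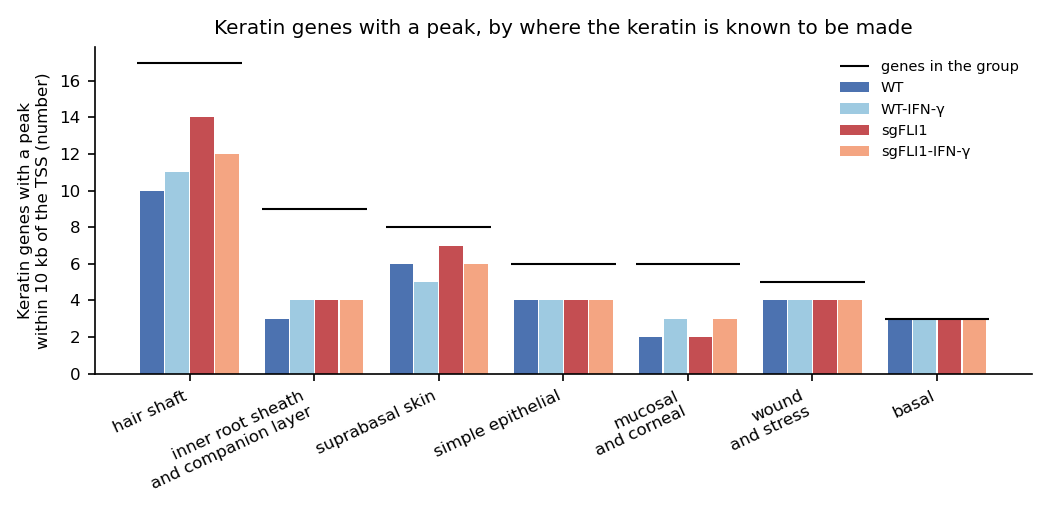
Keratin genes with a peak within 10 kb of the TSS (vertical axis, number of genes) by where the keratin is known to be made (horizontal axis), with 1 bar per library and a black line at the number of genes in the group. All 3 basal keratins have a peak in every list, against 3 or 4 of the 9 inner root sheath and companion layer keratins. Over all protein-coding genes the share was 76.5 to 78.4% by list.

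The groups by site of synthesis differed in how many of their members had a peak. The groups are small, and the differences between them were not tested. Over all protein-coding genes, 76.5 to 78.4% had a peak within 10 kb by list. Some peaks count for 2 groups: the only KRT6B peak, KRT75 -8480, also counts for KRT75, and KRT14 +7186 also counts for KRT9. All 3 basal keratins (KRT5, KRT14, KRT15) had one in every list, as did 4 of the 5 wound keratins (KRT6A, KRT6B, KRT16, KRT17) and 4 of the 6 simple epithelial keratins (KRT7, KRT8, KRT18, KRT19). Of the 17 hair shaft keratins, 10 had a peak in WT, 11 with treatment, 14 in sgFLI1 and 12 in the treated knockout, and none had a promoter peak. Those with a peak in sgFLI1 and none in WT were KRT33A, KRT33B, KRT38 and KRT35. KRT33A and KRT33B shared 1 peak of 10 tags, the 2 KRT38 peaks held 11 tags each, and the KRT35 peak held 24. Only 3 or 4 of the 9 inner root sheath and companion layer keratins had a peak within 10 kb in any one list.

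Keratin promoters open in every list were those of KRT8, KRT18, KRT7, KRT80, KRT16 and KRT17. The KRT8 promoter region held 157 summit tags in WT, 194 with treatment, 155 in sgFLI1 and 119 in the treated knockout. Its partner KRT18 held 95, 91, 85 and 80 tags in the same order. Its summit lay at the TSS in WT and in the treated knockout (-53 and -29 bp) and in an exon in the other libraries (780 and 789 bp), so its ratios set different summits of 1 broad peak against each other. KRT7, a keratin of ductal and glandular epithelia, held 135, 121, 97 and 80 tags. At these 3 simple epithelial promoters every log2 ratio of levels between paired libraries lay between -0.37 and 0.20. The local background around KRT8 and KRT18 was also high. It was 36.0 and 30.8 tags at the KRT8 and KRT18 summits in WT, against a genome background of 2.20 tags.

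KRT80, which is made broadly in differentiating epithelia, held 134, 120, 125 and 109 tags at its promoter. KRT16, the type I wound keratin, held 33, 51, 38 and 30 tags. No paired library differed 2-fold at either promoter. KRT17, a wound keratin known to be induced by interferon-γ in keratinocytes, held 67 tags in WT, 64 with treatment, 39 in sgFLI1 and 18 in the treated knockout. In tags and in level, both WT libraries thus lay above both knockout libraries, and the treated knockout library was the lowest. The log2 ratio of levels was -0.57 (-1.17 to 0.02) for sgFLI1 against WT and -1.46 (-2.31 to -0.69) for sgFLI1-IFN-γ against WT-IFN-γ, which is 2.76-fold lower. It was -0.20 (-0.72 to 0.31) for WT-IFN-γ against WT and -1.10 (-1.99 to -0.26) for sgFLI1-IFN-γ against sgFLI1. The local background at KRT17 was also lower in the knockout libraries: 11.8, 12.03, 4.39 and 4.06 tags. The fold over it was 5.29, 4.99, 7.42 and 3.75, so by that measure sgFLI1 was the highest.

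**Figure D2:**
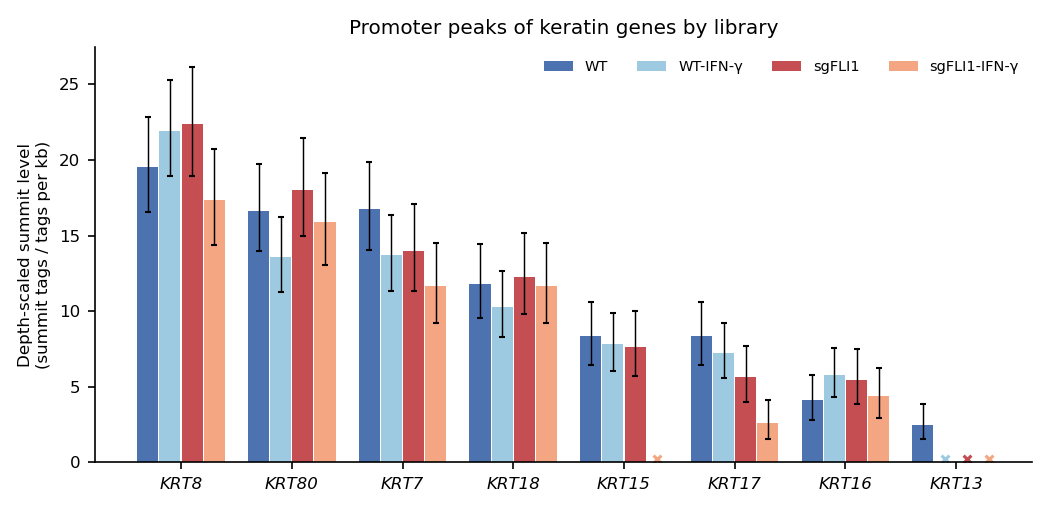
Depth-scaled summit level (summit tags divided by background tags per kb) at the 8 keratin promoters with a peak in any list, with 1 bar per library, 95% Poisson intervals and a cross where no promoter peak was listed. The bars at KRT8, KRT80, KRT7 and KRT18 have similar heights in the 4 libraries, and the KRT17 bar is lowest in sgFLI1-IFN-γ with 18 summit tags.

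Peaks at the canonical promoters of KRT15 and KRT13 were not in every list. KRT15, a basal keratin, held 67, 69 and 53 tags in the first 3 libraries, and no peak was listed there in sgFLI1-IFN-γ. Its local background was 22.3 to 28.3 tags, so a peak there had to be high to be listed. The sgFLI1 level would have given 52.4 tags in sgFLI1-IFN-γ. At the depth-scaled sgFLI1 background these have a −log10 p of 7.78, against a lowest listed value of 3.16 in sgFLI1-IFN-γ. KRT15 -2982, near the start of a longer KRT15 transcript, was in every list. Its log2 ratio was 0.02 (-0.37 to 0.41) for sgFLI1-IFN-γ against WT-IFN-γ. KRT13, the partner of KRT4 in mucosa, had a promoter peak of 20 tags in WT alone. The basal pair KRT5 and KRT14 had no promoter summit within 1 kb in any list, nor did KRT6A, KRT6B, KRT6C, KRT1, KRT10 or KRT19. When any base of a peak within 1 kb was counted, KRT5 had a promoter peak in every list but WT-IFN-γ, KRT78 had one in treated WT and untreated knockout cells, and KRT6A and KRT19 had one in WT-IFN-γ.

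Of the 10 keratin regions with the highest summits, 6 were away from promoters. KRT86 +6012, in an intron of the hair keratin KRT86, held 201, 225, 173 and 124 tags, the highest of any keratin region in all 4 lists. KRT15 -2982, in an exon of a longer KRT15 transcript, held 128, 127, 110 and 100 tags. Its strongest summit (chr17:41521872) lay within 1 kb of the outermost KRT15 start (chr17:41522529), so it may be a promoter peak of that transcript. KRT19 -2147 held 110, 116, 110 and 97 tags, upstream of the type I keratin of simple epithelia, and KRT31 -6590 held 100, 95, 117 and 82. In KRT80, the intronic region at +5787 held 98, 97, 73 and 53 tags. KRT8 -3181, in a KRT8 intron, held 81, 91, 96 and 75. Of these 6 regions none differed 2-fold between paired libraries.

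The remaining hair keratins carried a few steady regions and several weak ones. KRT83 -6318 held 82, 89, 58 and 79 tags. KRT36 -7010, which is also within 10 kb of KRT13, held 61, 66, 72 and 63, and KRT32 +2442, in an intron, held 53, 41, 47 and 42. These 3 regions had no ratio past 2-fold. KRT34 +2022 held 30, 40, 19 and 21 tags and KRT85 -5225 held 27, 37, 21 and 21, with the knockout libraries below the WT libraries in raw tags. Their log2 ratios for sgFLI1 against WT had intervals that included 0. KRT39 +2877 and KRT84 -5564 held 13 to 23 tags in all lists. The hair keratin regions KRT83 +5515, KRT83 +2140, KRT85 +4988, KRT84 +5038, KRT37 +6916, KRT38 +2957, KRT38 -2094 and KRT33B +9160 were each missing from at least 1 list and held 8 to 19 tags where listed.

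Other regions lay near skin, mucosal and inner root sheath keratins. KRT75 -8480, upstream of a companion layer keratin and also within 10 kb of KRT6B, held 58, 41, 66 and 40 tags. KRT74 -9278 held 37, 36, 37 and 24 and KRT28 -3800 held 31, 31, 24 and 27, both near inner root sheath keratins. KRT3 -3190 held 48, 33, 40 and 45 tags, with a log2 ratio of 0.81 (0.13 to 1.51) for the treated knockout against treated WT and -0.05 in untreated cells. KRT2 -3812, KRT78 +1129, KRT76 +7716, KRT71 -9051 and KRT1 -7591 were missing from at least 1 list and held 12 to 16 tags. Near the basal keratin KRT14, the region at +7186, which is also within 10 kb of KRT9, held 68, 76, 60 and 68 tags, and that at -4640 was listed in the 2 treated libraries alone, with 13 and 11 tags. KRT37 +6916 had the same pattern, with 19 and 16 tags. KRT17 -9529 (16 tags, treated WT alone) and KRT19 -9651 (12 and 11 tags, the 2 untreated libraries) were the last of the weak regions. KRT13 -5763 held 39, 34, 43 and 39 tags. Near the simple epithelial pair, KRT8 +9479 held 90, 93, 53 and 41 tags and KRT18 -3104 held 80, 78, 51 and 55. For KRT8 +9479 the log2 ratio was -0.55 (-1.07 to -0.04) in untreated and -0.82 (-1.38 to -0.27) in treated cells, with summits at 9479 and 9581 bp in the WT libraries and at 8881 and 8812 bp in the knockout libraries. Its local background was 31.1, 28.4, 16.4 and 15.3 tags.

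**Figure D3:**
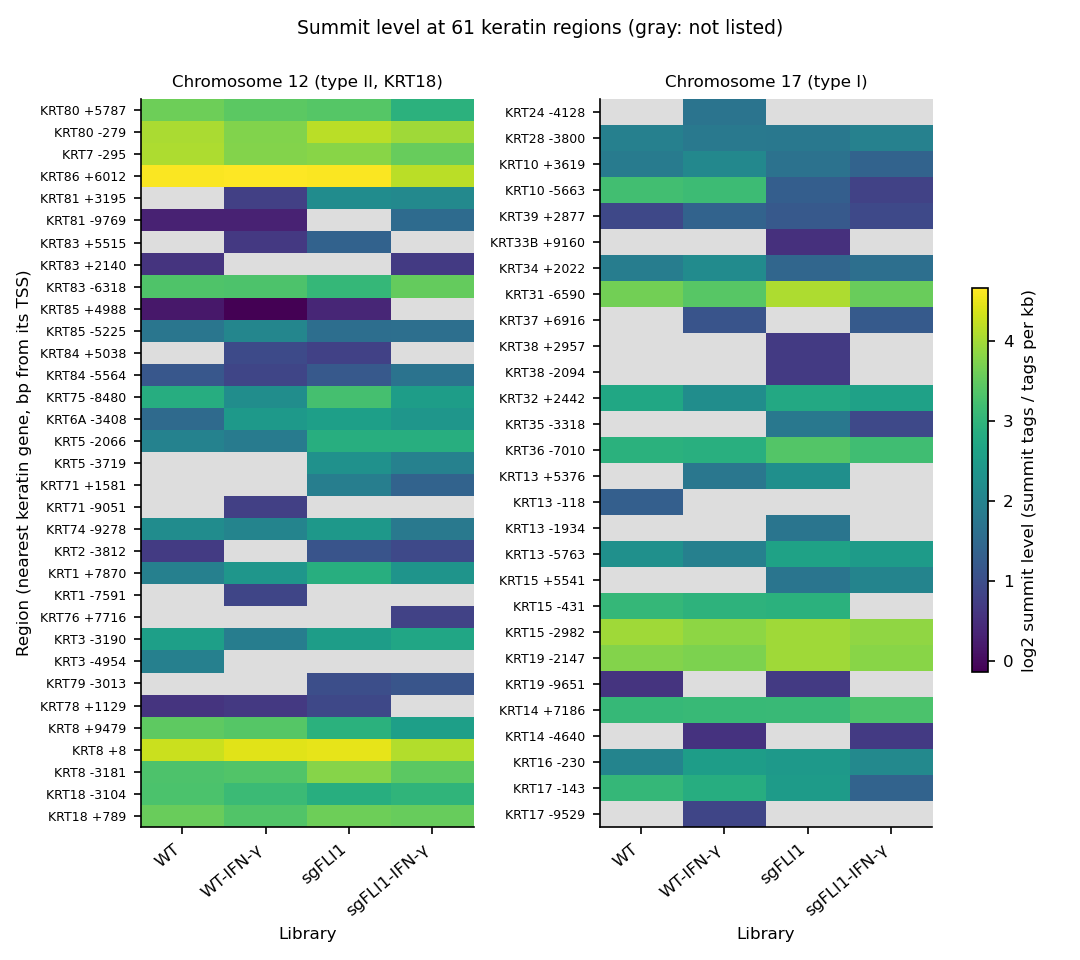
log2 of the depth-scaled summit level (color) at the 61 keratin regions (rows, by gene and bp from its TSS, in genome order) in the 4 libraries (columns), with gray where no peak was listed. 32 rows are colored in all 4 columns, and KRT10 -5663 is lighter in both WT columns than in both knockout columns.

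32 of the 61 regions were in every list (52.5%, against 43.9% of the 93211 merged regions of the genome) and 11 were in only 1 list (18.0% against 32.4%). The median keratin peak held 43.5, 41, 38 and 35.5 tags in the 4 libraries. The median of all peaks was 31, 30, 27 and 26 tags. The AP-1 motif was within 100 bp of the summit of 19 regions (31.1%, 20.9 to 43.6, against 22.7% of all regions). The GAS motif was found in 5 (8.20% against 6.57%), GAAANNGAA (an IRF motif) in 4 (6.56% against 7.92%), the p63 consensus in 3 (4.92% against 5.14%) and CCGGAAG (an ETS motif) in 0 of 61 (up to 5.92% by the Wilson interval, against 2.94%). Both strands were searched. A match describes letters only. AP-1 matches included KRT10 -5663 and the promoter regions of KRT17, KRT16, KRT80 and KRT18. GC content over the same windows had a median of 54.7% in keratin regions and 49.8% in all.

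FLI1 knockout was compared with WT in untreated cells. The largest difference was KRT10 -5663, upstream of the type I keratin of suprabasal skin. It held 75 tags in WT, 79 with treatment, 17 in sgFLI1 and 12 in the treated knockout, so both WT libraries lay well above both knockout libraries. Its level was 3.80-fold lower in sgFLI1 than in WT (log2 -1.93, -2.78 to -1.15) and 5.11-fold lower in sgFLI1-IFN-γ than in WT-IFN-γ (log2 -2.35, -3.37 to -1.47). The local background was 7.69, 6.68, 1.80 and 1.75 tags, in the knockout libraries that of the genome. The listed peak was 1119, 989, 670 and 258 bp wide. The second KRT10 region, at +3619, held 29, 38, 22 and 18 tags, and its log2 ratio was -0.18 (-1.05 to 0.67) in untreated and -0.71 (-1.61 to 0.13) in treated cells.

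Among 34 keratin peaks paired one to one between sgFLI1 and WT, which leaves out regions with several peaks in a list such as KRT6A -3408, the median log2 ratio was 0.05, as over all 45942 shared peaks. 0 were at least 2-fold higher (4.09% of all) and 1 was 2-fold lower (1.87% of all), which was KRT10 -5663. In treated cells the median over 37 shared keratin peaks was 0.11, against -0.02 over all. 3 were 2-fold higher (2.94% of all) and 2 were 2-fold lower (3.29% of all). The 2 lower were KRT10 -5663 and KRT17 -143. The 3 higher were KRT81 +3195, KRT81 -9769 and KRT5 -2066, of which KRT5 -2066 fell under 2-fold (log2 0.97) when centered on shared peaks within 5 Mb.

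**Figure D4:**
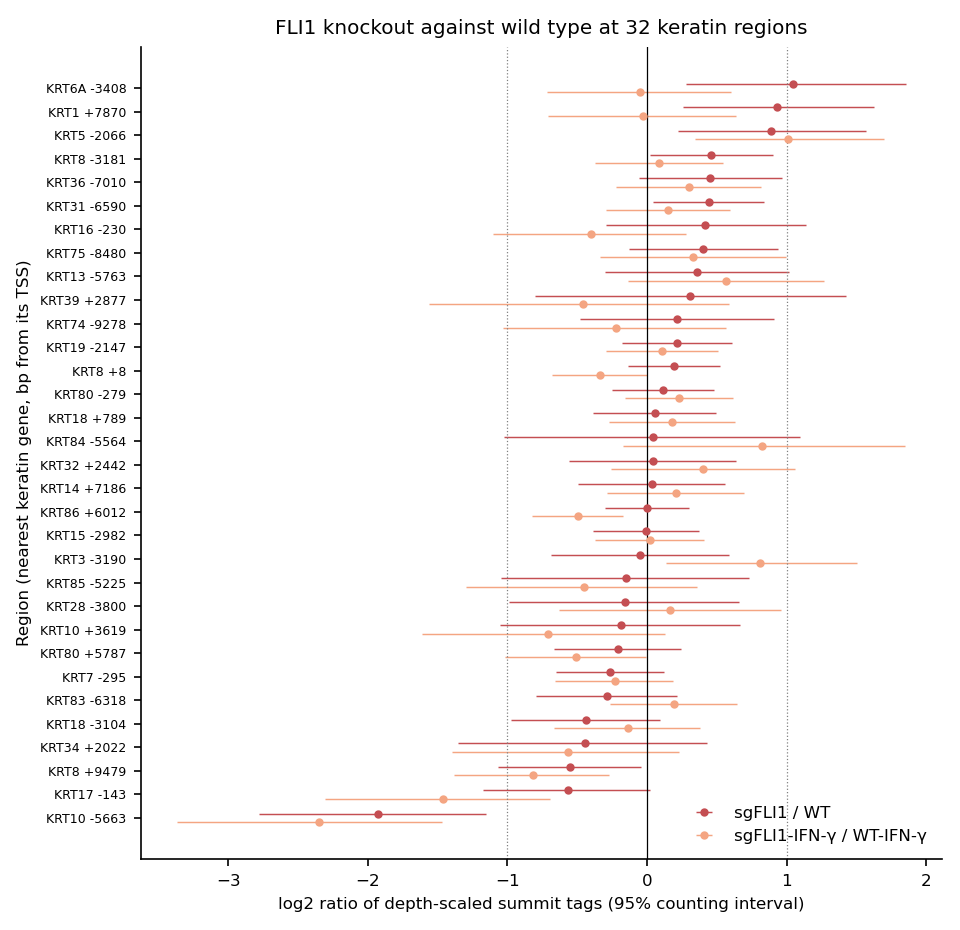
log2 ratio of depth-scaled summit tags, knockout over WT (horizontal axis, with 95% counting intervals), at the 32 keratin regions listed in all libraries (vertical axis), for untreated (dark) and IFN-γ-treated cells (light), with dotted lines at 2-fold. KRT10 -5663 lies furthest to the left in both comparisons, at -1.93 and -2.35. Each point sets the highest summits against each other, and the treated KRT6A point joins summits at -3409 and -1418 bp.

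Upstream of the basal keratin KRT5, the highest summits held more tags in the knockout lists. KRT5 -2066 held 32 tags in WT, 32 with treatment, 51 in sgFLI1 and 50 in the treated knockout, with both knockout libraries above both WT libraries. The summits lay at -2474, -2407, -2066 and -1667 bp within 1 overlapping region, and in neither pair did a knockout summit lie within 250 bp of its WT counterpart. WT held a further summit of 26 tags at -1636 bp. The log2 ratio of the highest summits was 0.89 (0.22 to 1.57) in untreated and 1.01 (0.34 to 1.70) in treated cells. The local background moved the same way: 7.66, 7.16, 11.3 and 10.4 tags. The fold over it was 3.81, 4.05, 4.23 and 4.47. After subtraction of local background the log2 ratio in treated cells was 1.04. The adjoining KRT5 -3719 was listed only in the knockout libraries, with 34 and 27 tags over a local background of 11.3 and 10.5. The fold over it was 2.85 and 2.44, and the −log10 q was 5.73 and 3.22. KRT6A -3408, upstream of a wound keratin, held several summits. At the site near -3408 it held 23 tags in WT, 32 with treatment, 41 in sgFLI1 and 36 in the treated knockout, the lowest value being that of WT. The log2 ratio there was 1.05 (0.28 to 1.85) in untreated and 0.54 (-0.19 to 1.27) in treated cells. Further summits held 17 tags in WT (at -2306 bp) and 48 tags in WT-IFN-γ (at -1418 bp). KRT1 +7870, near the type II keratin of suprabasal skin, held 31, 46, 51 and 35 tags. Its log2 ratio was 0.93 (0.26 to 1.63) in untreated and -0.03 in treated cells. The differences between treated and untreated ratios were not tested.

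Of the 51 keratin peaks in sgFLI1, 13 shared no base with a WT peak (25.5%, against 25.3% of all sgFLI1 peaks). 4 of 42 WT peaks shared none with sgFLI1 (9.52% against 21.4%). In treated cells, 8 of 46 peaks were gained in the knockout (17.4% against 19.8%) and 10 of 49 were lost (20.4% against 29.0%). 5 regions were listed in both knockout libraries and in neither WT library. Besides KRT5 -3719 these were KRT71 +1581 (26 and 18 tags without and with treatment), at an inner root sheath keratin; KRT35 -3318 (24 and 13), at a hair keratin; KRT15 +5541 (23 and 28); and KRT79 -3013 (14 and 15). No keratin region was listed in both WT libraries and in neither knockout library. The shares of all merged regions with these patterns are not given here, so the counts cannot be read as particular to keratins. At KRT71 +1581, the sgFLI1 level would have given 30.2 tags in WT. KRT81 +3195, in an intron of a hair keratin, was not listed in WT and held 15, 32 and 30 tags in the other 3 lists. KRT81 -9769 held 10 and 11 tags in the WT lists and 20 in the treated knockout, and was not listed in sgFLI1.

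Interferon-γ was compared with no treatment within each genotype. In WT cells, 10 of 49 keratin peaks were gained with treatment (20.4%, against 25.2% of all WT-IFN-γ peaks) and 4 of 42 were lost (9.52% against 15.9%). In knockout cells, 5 of 46 were gained (10.9% against 18.0%) and 11 of 51 were lost (21.6% against 22.2%). The keratin shares were thus no higher than those of all peaks in any of the 4 counts. Shared keratin peaks had a median log2 ratio of -0.07 in WT (34 peaks, -0.07 over all) and -0.18 in knockout cells (39 peaks, -0.14 over all). In WT, 1 was 2-fold higher (1.80% of all) and 0 were 2-fold lower (0.920%). In knockout cells, 0 were 2-fold higher (0.210%) and 1, KRT17 -143, was 2-fold lower (0.513%), though not when centered on all shared peaks (log2 -0.96). Centered on shared peaks within 5 Mb, KRT17 -143 was at the 2-fold limit (log2 -1). The 1 in WT was in KRT6A -3408, where overlapping peaks of 48 tags in WT-IFN-γ and 17 tags in WT were paired, with summits at -1418 and -2306 bp. At the matched site near -3408 the log2 ratio was 0.34 (-0.48 to 1.18).

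2 of the peaks gained with interferon-γ in WT held at least 20 tags. KRT24 -4128 was listed in WT-IFN-γ alone with 29 tags over a background of 3.36, and its level would have given 26.4 tags in WT. KRT24 is a type I keratin known from corneal epithelium. KRT13 +5376 held 30 tags in treated WT cells and 33 in untreated knockout cells, and was listed in neither of the other libraries. 2 lost peaks also held at least 20 tags, and both were listed in WT alone: KRT3 -4954 with 31, near a corneal keratin, and the KRT13 promoter with 20. In knockout cells, KRT81 -9769 (20 tags) was gained. The peaks at the canonical KRT15 promoter (53), KRT13 +5376 (33) and KRT13 -1934 (23, listed in sgFLI1 alone) were lost. The other 4 gained and 8 lost peaks of that comparison held 9 to 18 tags.

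Neighboring chromatin gave ratios close to 0. Shared peaks within 5 Mb of the clusters had median log2 ratios of 0.02 on chromosome 12 and 0.07 on chromosome 17 for sgFLI1 against WT. They were 0.04 and 0.08 for the treated pair. Centered on these, KRT10 -5663 was at -2.00 and -2.43.

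Near-identical copies limit some of these values, because the study's methods removed reads of low mapping quality. At least 95% identity over 100 bp elsewhere in the genome was found for 100% of the 2 kb around the KRT16 TSS and 51.3% of that around KRT17. It was also found for 100% of the 501 bases around KRT81 +3195. KRT8 +8 had such copies over 47.5% of its 501 bases, KRT83 +5515 over 48.7% and KRT85 +4988 over 44.3%. Of the hair keratins, KRT81 had them over 46.6% of the 2 kb around its TSS and KRT34 over 32.4%. KRT83, KRT85, KRT33A, KRT33B and KRT31 had them over 11.1 to 19.1%. Tags there may be undercounted. No such copy was found for KRT10 -5663, KRT5 -2066, KRT24 -4128, KRT71 +1581 or the 501 bases around KRT17 -143. KRT81 and KRT86 overlap, so a peak in both introns cannot be given to one of them.

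The genes that join keratin filaments to other structures had promoter peaks more often than the keratin genes. Over all protein-coding genes, 76.5 to 78.4% had a peak within 10 kb by list and 58.8 to 60.3% had a promoter peak. All 10 linkers (plakins and plakophilins among them) had a peak within 10 kb in every list and 9 had a promoter peak in every list, PKP1 being the exception. PPL (periplakin) held 89, 106, 47 and 35 promoter tags in the 4 libraries, and EPPK1 (epiplakin) held 105, 104, 56 and 58. DSP (desmoplakin), which anchors keratin at desmosomes, held 121, 125, 108 and 95. Of 13 other intermediate filament genes, 6 had a promoter peak in every list, among them VIM (vimentin) with 87, 102, 88 and 72 tags. The muscle, glial and neurofilament genes DES, GFAP, PRPH, NEFL, NEFM, NEFH and INA had none.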

How the data were processed

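ATAC-seq peak lists of 4 HK1 libraries were used, 1 per group. Per the study's methods and the submitters' processing notes, the authors trimmed reads (Trimmomatic 0.3), aligned them to GRCh38 (Bowtie2 2.3.4.1), removed duplicates and reads of low mapping quality, and called peaks with MACS2 2.1.2. The methods also describe a filter for reproducible peaks (irreproducible discovery rate). Whether the lists used here had passed that filter was not checked. The Tn5 shift is not given in the sources used here. The deposited columns used were the fold (ratio) over local background at the summit, the −log10 p and −log10 q values, the score and the summit offset.

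Summit tags and local background were recovered as the whole number that gives both the deposited fold and −log10 p (100% of peaks in 3 lists, 99.9983% in sgFLI1-IFN-γ). Tag density was the lowest background divided by the shortest peak. Peaks were shared when 1 bp overlapped. Ratio intervals were exact binomial and pileup intervals exact Poisson (95%), covering counting error only. PCR reads are not independent molecules. Copies were searched with BLAST 2.17.0. The steps were tested on simulated data. Genes with a promoter peak, regions past 2-fold and gained or lost peaks of at least 20 tags were named. Members and lists were chosen with earlier results of these data known. Alternatives changed windows, overlap, q limits, depth and centring. Total read depth was not used here.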

Additional observations from a re-analysis of the deposited data

Results flagged for a closer look

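The number of keratin peaks moved in opposite directions with interferon-γ in the 2 genotypes: +7 in WT (42 to 49) and -5 in sgFLI1 (51 to 46). Keratin genes with a peak within 10 kb moved by +2 in WT (32 to 34) and by -2 in sgFLI1 (38 to 36). At −log10 q of at least 5 this gene count was higher with treatment in both genotypes (29 to 32 and 34 to 35), so its opposite signs were lost. The peak counts kept opposite signs there (35 to 42 and 44 to 42). At −log10 q of at least 10 both counts had opposite signs: genes 25 to 29 and 29 to 26, peaks 28 to 34 and 31 to 28. Peaks within 10 kb of KRT84, a hair keratin, moved by +1 in WT (1 to 2) and by -1 in sgFLI1 (2 to 1). All were singled out because the changes had opposite signs. With 1 library per group, the difference was not tested. The lists as wholes moved the same way, from 59629 to 67470 peaks in WT and from 63203 to 59923 in sgFLI1, and the part of the list size in these counts was not tested.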

How the results depend on the processing

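No paired analysis was possible because each group had 1 library. Of the values recomputed, 119 stayed within their limits and 45 moved. 1 median changed sign, that of shared keratin peaks for WT-IFN-γ against WT, from -0.07 to 0.034. With a 5 kb window, 21 keratin genes had a nearby peak in WT and 22 with treatment. With summits within 3 kb, promoter peaks were found for 16, 14, 16 and 14 genes in the order of libraries above. Counted at the start of every transcript, promoter peaks within 1 kb were found for 10, 9, 8 and 8 genes. At −log10 q of at least 10, a limit chosen after seeing the data for this count, 31 keratin peaks were left in sgFLI1 and 28 in sgFLI1-IFN-γ.

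Gained and lost counts depended most on the choices. For WT-IFN-γ against WT, gained peaks numbered 18 when 50% of each peak had to overlap, 16 when summits had to lie within 250 bp, 2 at −log10 q of at least 10 and 3 in a 5 kb window, and lost peaks 11 (50%), 9 (summits), 1 at −log10 q of at least 5 and 0 at 10. For sgFLI1-IFN-γ against sgFLI1, gained peaks numbered 10 (50%), 10 (summits), 3 (q limit of 5), 0 (limit of 10), 2 (5 kb) and 9 (20 kb), and lost peaks 6 (limit of 5), 0 (limit of 10), 6 (5 kb) and 18 (20 kb). For sgFLI1 against WT, gained peaks numbered 20 (50%), 3 (limit of 10), 8 (5 kb) and 23 (20 kb), and lost peaks 12 (50%), 10 (summits), 1 (limit of 5), 0 (limit of 10) and 9 (20 kb). For sgFLI1-IFN-γ against WT-IFN-γ, gained peaks numbered 14 (summits), 5 (limit of 5), 0 (limit of 10) and 13 (20 kb), and lost peaks 17 (summits), 2 (limit of 10) and 4 (5 kb). The stricter limits and narrower windows leave fewer peaks to count. Centring on shared peaks within 5 Mb moved the median log2 ratio to 0.034 for WT-IFN-γ against WT and to -0.052 for sgFLI1-IFN-γ against sgFLI1, and centring on all shared peaks moved the latter to -0.041. Regions past 2-fold kept their direction under both centrings and after subtraction of local background. However, KRT5 -2066 in treated cells fell to 0.97 with the centring within 5 Mb. KRT17 -143 in sgFLI1-IFN-γ against sgFLI1 fell to -0.96 with that on all shared peaks and to the 2-fold limit (-1) with that within 5 Mb. The smallest listed peaks held 7 or 8 tags and more were needed where local background was high, so a missing peak does not show closed chromatin.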
